A study of Mus musculus with 6 samples.

Results

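Homologous recombination repairs broken DNA by copying an intact sister sequence, and the Fanconi pathway clears crosslinks that tie the DNA strands together. The genes described here encode the proteins of both pathways and the kinases that signal the damage. They were taken by symbol from a list of 36, and 35 were found among the 56734 gene symbols of the count table. Claspn, the remaining name, has no row under that spelling, and the mouse claspin gene Clspn is given separately below. All 35 had enough counts to enter the test, out of 17718 genes tested, with 216 to 11389 counts per gene and library.

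The data are 6 poly(A) RNA libraries from B16-OVA cells, a mouse melanoma line that makes ovalbumin, 3 labelled WT and 3 labelled Ythdf2-KO. Both genotypes were grown in the same medium, and no treatment or time point is given. The sample titles carry the tags gNC for WT and gY2 for Ythdf2-KO; whether a genotype is 1 clone, and whether its replicates were separate cultures, is not stated. P-values therefore measure the spread between these libraries, which may be technical. YTHDF2 is a reader of N6-methyladenosine that promotes the decay of mRNAs carrying this mark, and the comparison asks which mRNAs differ between tumor cells labelled Ythdf2-KO and WT.

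In outline, a double-strand break is trimmed by nucleases, strand pairing is prepared under the guidance of BRCA1, PALB2 and BRCA2, and the invaded joint is resolved by helicases. In the Fanconi pathway a core complex attaches ubiquitin to the pair FANCD2 and FANCI, which calls in nucleases. ATM and ATR sense the lesions and act through CHK2 and CHK1. Many of these genes are transcribed as cells enter and pass through S phase, many under E2F transcription factors, and tumor cells with broken recombination are known for sensitivity to PARP inhibitors.

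The library totals were 55660473 to 69497273 counts. Levels below are CPM, which is counts relative to the library total, scaled with TMM factors. Ythdf2 itself, the targeted gene, stood at 124, 124 and 125 CPM in WT, and at 100.1, 101 and 104 CPM in Ythdf2-KO, a partial fall that gene-level counts cannot relate to the edited sequence. All 7 melanocyte markers were detected, with a summed level of 237 to 241 CPM in the WT libraries against 1401 to 1431 CPM in those of Ythdf2-KO. The sum of 10 leukocyte markers was 18.8 to 20.2 CPM in the WT libraries against 24.0 to 25.5 CPM in those of Ythdf2-KO. Of the 5 leukocyte markers tested, 2 rose and 1 fell, and the lowest log2 fold change was -2.63. Ptprc, not tested, had 74 counts in Ythdf2-KO replicate 3 and 0 to 6 in each other library. The markers of fibroblasts, endothelium and epithelium summed to 1115 to 1157 CPM in the WT libraries against 969 to 990.3 CPM in those of Ythdf2-KO. Of the 7 tested in that list 3 rose and 3 fell: Dcn went from 487 to 41.5 CPM, while Pdgfra went from 269 to 407 CPM and Pdgfrb from 339.8 to 505 CPM. Of 8 RNA-quality genes, 6 mitochondrial mRNAs and Malat1 were higher in Ythdf2-KO. The sum of the 8 was 10137 to 12371 CPM in the WT libraries against 14942 to 17100 CPM in those of Ythdf2-KO. The part of these differences in the results below was not tested.

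Promoter windows, from 250 bases before to 50 after a RefSeq start site (GRCm38.p6), were found for 26 of the 35 genes. E2F-type words are shown because such sites are known at S-phase genes. The words searched on both strands were TTTCCCGC, TTTGGCGC, TTTCGCGC and TTTGCCGC. At least 1 of them lay in 7 of the 29 windows of these genes (24.1%) and in 2.26% of all 32851 windows. The set of all windows was not matched to these genes in GC content or expression. Of 24 S-phase genes listed for comparison, 18 had a window, and such a word lay in 9 of their 20 windows (45.0%). A CCAAT word lay in 18 of the 29 windows (62.1%) and in 37.4% of all windows. The words TTTGAA or TTCGAA, which resemble the element of late cell-cycle genes, lay in 3 of the 29 (10.3%) and in 19.2% of all.

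The windows below belong to the 3 genes with the largest fold among those that passed the test and held an E2F-type word, which is in capitals. They lie at chr5:150522371-150522670 on the plus strand for Brca2, chr11:87404457-87404756 on the minus strand for Rad51c, and chr1:71102923-71103222 on the minus strand for Bard1. Each is written 5′ to 3′ on the strand of its gene.
Brca2: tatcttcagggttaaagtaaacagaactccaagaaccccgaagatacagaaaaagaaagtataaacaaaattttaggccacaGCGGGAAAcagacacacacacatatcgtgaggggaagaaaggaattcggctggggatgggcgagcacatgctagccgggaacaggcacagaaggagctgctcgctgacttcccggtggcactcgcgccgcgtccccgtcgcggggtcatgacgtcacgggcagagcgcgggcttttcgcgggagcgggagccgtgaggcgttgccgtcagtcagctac
Rad51c: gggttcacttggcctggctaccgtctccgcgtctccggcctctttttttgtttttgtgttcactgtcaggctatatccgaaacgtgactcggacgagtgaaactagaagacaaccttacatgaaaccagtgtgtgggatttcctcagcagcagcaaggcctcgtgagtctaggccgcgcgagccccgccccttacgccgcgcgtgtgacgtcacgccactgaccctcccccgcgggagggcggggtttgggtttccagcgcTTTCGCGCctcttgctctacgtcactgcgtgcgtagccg
Bard1: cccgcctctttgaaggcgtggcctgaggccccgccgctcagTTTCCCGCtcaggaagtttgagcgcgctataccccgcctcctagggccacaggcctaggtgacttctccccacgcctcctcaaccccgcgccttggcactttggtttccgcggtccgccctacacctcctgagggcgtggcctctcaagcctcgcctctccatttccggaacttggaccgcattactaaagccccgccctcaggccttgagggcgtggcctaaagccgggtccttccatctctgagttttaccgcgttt
The mRNAs of these 3 genes did not move alike: Brca2 and Bard1 fell in Ythdf2-KO and Rad51c rose. Among genes with a window, the word was found in 3 of 11 that fell, 1 of 4 that rose and 2 of 11 that did not pass. The other genes with it were Topbp1, Chek2 and Fancg. TTTGAA or TTCGAA lay in 3 of 11 that fell, 0 of 4 that rose and 0 of 11 that did not pass. CCAAT lay in 5 of 11, 3 of 4 and 8 of 11 in that order. The shares over all genes with a window were 21.7% and 41.1%. These counts are small, and differences by call were not tested.

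Of the 35 genes, 16 fell in Ythdf2-KO, 5 rose and 14 did not pass (quasi-likelihood test of edgeR, adjusted p under 0.05 after Benjamini-Hochberg correction over all genes tested). That is 45.7% lower and 14.3% higher, beside 25.8% lower and 24.1% higher among all genes tested, of which 49.9% were called in either direction. The median log2 fold change was -0.12, against -0.0053 for all genes tested. The changes were small: the median size, whichever the direction, was 0.15 on the log2 scale against 0.21 for all genes, and only Blm passed with at least a 1.5-fold difference, which 15.0% of all genes did. Every Ythdf2-KO library lay below every WT library for 17 of the genes and above for 6, together 23 of 35. Among all genes tested these shares were 28.9% and 26.9%, together 55.9%. In a bulk sample, fewer cells in S phase and less RNA per cell cannot be told apart.

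**Figure D1:**
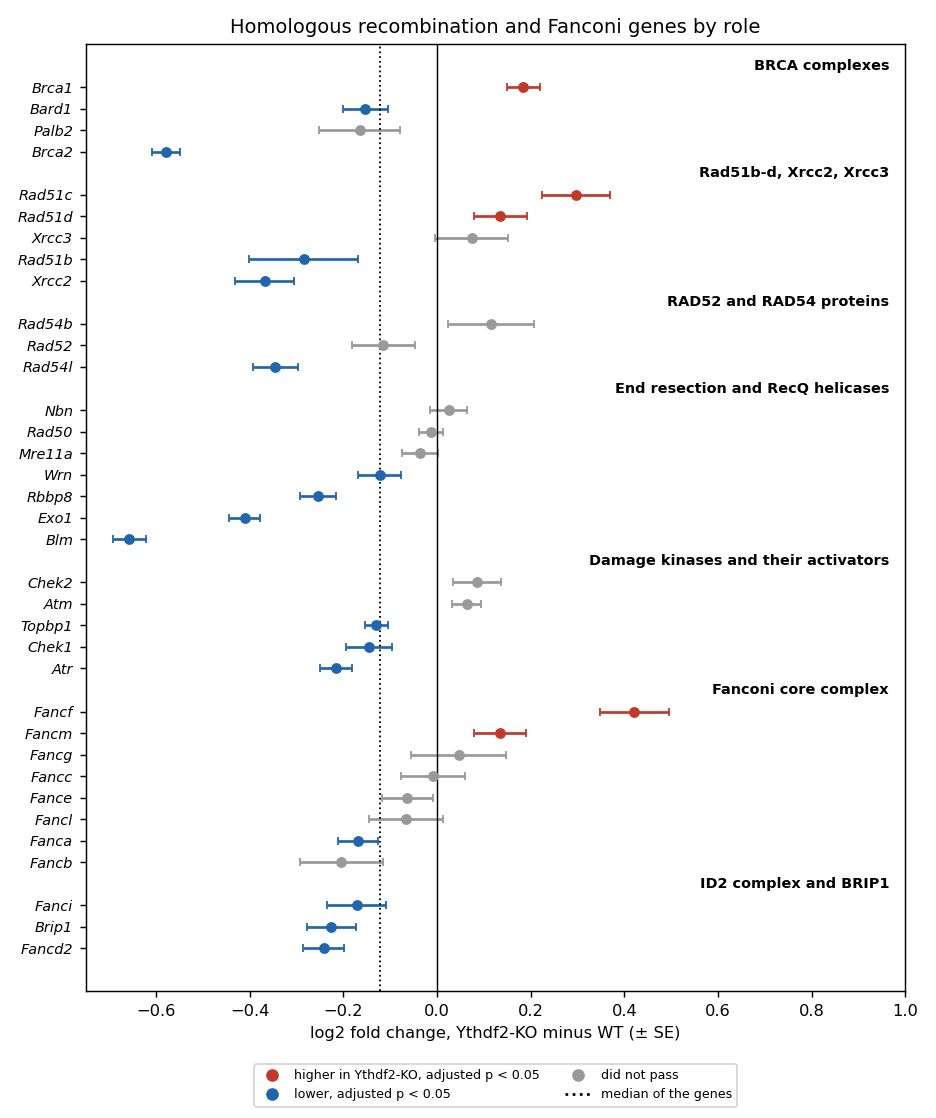
Log2 fold change of each gene (x axis, Ythdf2-KO minus WT, bars give the SE, n = 3 per group), ordered by role; colour marks the call and the dotted line the median of -0.12. Blm and Brca2 lie farthest left at -0.66 and -0.58, and Fancf farthest right at 0.42.

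With upper-quartile scaling 7 of the genes were higher and 11 lower, and over all genes the share of calls that were higher went from 48.3% to 59.2%. The count of 5 higher genes fell to 3 without WT replicate 3, without Ythdf2-KO replicate 1 and without Ythdf2-KO replicate 2, while the count of lower genes stayed between 13 and 15 without any 1 library. Of the 21 called genes, 14 kept direction and call under every alternative tried: Brca1, Brca2, Rad51c, Xrcc2, Rad54l, Rbbp8, Exo1, Blm, Atr, Topbp1, Fanca, Fancf, Fancd2 and Brip1.

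The BRCA proteins act in complexes that prepare broken ends for strand exchange. Brca2, the gene of a central mediator of that step, was at 102, 106 and 101 CPM in the WT libraries, in replicate order here and below, and at 70.3, 68.5 and 67.3 CPM in those of Ythdf2-KO. The groups stood far apart, with little spread within either. This gave a log2 fold change of -0.58 ± 0.030 (SE, n = 3 per group; edgeR adjusted p = 2.45e-21), a 1.49-fold fall. Brca1, which encodes a ubiquitin ligase that promotes end trimming and recombination, went the other way. It stood at 49.6, 51.2 and 50.3 CPM in WT, and at 59.6, 55.4 and 56.9 CPM in Ythdf2-KO, with no overlap. The rise was 0.18 ± 0.036 on the log2 scale (SE, n = 3 per group; edgeR adjusted p = 2.24e-05), and 0.10 with the offset for transcript length and GC content (edgeR adjusted p = 0.0122).

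Bard1 encodes the obligate partner of BRCA1 and fell from 28.5 to 25.6 CPM (log2 fold change -0.15, edgeR adjusted p = 0.00679), but not when upper-quartile scaling was used (edgeR adjusted p = 0.0820). Palb2, whose protein bridges BRCA1 and BRCA2, went from 9.23 to 8.22 CPM and did not pass (log2 fold change -0.17, edgeR adjusted p = 0.112). It passed as lower without WT replicate 2 or without Ythdf2-KO replicate 1 (edgeR adjusted p = 0.0299 and 0.0448). The ratio of Brca1 to Bard1 counts was 1.79, 1.81 and 1.72 in WT against 2.38, 2.22 and 2.13 in Ythdf2-KO. All 3 Ythdf2-KO ratios lay above the WT ones. That of Brca2 to Palb2 was 10.2, 12.9 and 10.6 in WT against 7.81, 8.93 and 8.43 in Ythdf2-KO, below WT throughout. These pairs were chosen after their values were seen and were not tested.

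The genes Rad51b, Rad51c, Rad51d, Xrcc2 and Xrcc3 encode related proteins that assist strand exchange, and these 5 split: 2 rose, 2 fell and 1 did not pass. Xrcc2 was at 18.5, 19.5 and 19.0 CPM in WT, and at 13.5, 14.9 and 15.8 CPM in Ythdf2-KO. The libraries did not overlap, and those of Ythdf2-KO varied more among themselves. This gave a log2 fold change of -0.37 ± 0.063 (SE, n = 3 per group; edgeR adjusted p = 2.75e-06). Rad51c was at 11.8, 10.7 and 10.3 CPM in WT, and rose to 12.9, 14.4 and 12.9 CPM. All 3 Ythdf2-KO libraries were above WT (log2 fold change 0.30 ± 0.073, SE, n = 3 per group; edgeR adjusted p = 6.41e-04). Rad51d rose 1.10-fold and Rad51b fell 1.22-fold by the same test (edgeR adjusted p = 0.0439 and 0.0384), but Rad51d overlapped between the groups. The call was lost under 9 of 17 alternatives for Rad51d and 11 of 16 for Rad51b, with edgeR, limma or DESeq2 adjusted p of up to 0.228 and 0.174. Without WT replicate 1 or 3, or Ythdf2-KO replicate 1 or 2, the edgeR adjusted p of Rad51d was 0.191, 0.0745, 0.228 and 0.156. For Rad51b it was 0.0772 and 0.168 without WT replicate 2 or 3, and 0.0529, 0.160 and 0.0601 without Ythdf2-KO replicate 1, 2 or 3. Xrcc3 was at 10.1 and 10.7 CPM and did not pass. XRCC2 and RAD51B belong to the same 4-protein complex with RAD51C and RAD51D. Of the mRNAs for that complex, Xrcc2 stayed lower and Rad51c higher under all 17 alternatives. The calls of Rad51b and Rad51d were not stable, and protein was not measured.

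RAD54 proteins drive strand exchange and RAD52 is an annealing factor. Rad54l was at 30.8, 29.8 and 32.4 CPM in WT, and at 23.9, 24.7 and 24.6 CPM in Ythdf2-KO. Every Ythdf2-KO library lay below WT (log2 fold change -0.35 ± 0.048, SE, n = 3 per group; edgeR adjusted p = 3.16e-08). Its exons share 15.4% of their length with Lrrc41 on the opposite strand, which itself fell by 0.30 on the log2 scale, and reads there cannot be told apart because the strand setting of the counting is not given. Rad52 was at 13.7, 14.2 and 13.8 CPM in WT, and at 13.1, 12.02 and 13.5 CPM in Ythdf2-KO. These lay lower without overlap, yet the gene did not pass (log2 fold change -0.11, edgeR adjusted p = 0.164). Rad54b, which shares 35.8% of its exon length with Fsbp on the same strand, did not pass either (log2 fold change 0.12, edgeR adjusted p = 0.326).

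The MRN complex of MRE11, RAD50 and NBS1 binds ends first and starts the trimming, and none of its 3 genes passed the test. Rad50 was at 121, 123 and 123 CPM in WT, and at 123, 122 and 119 CPM in Ythdf2-KO. Mre11a was at 50.5, 48.6 and 52.3 CPM in WT, and at 48.2, 51.6 and 47.9 CPM in Ythdf2-KO. Nbn was at 46.8, 46.2 and 48.1 CPM in WT, and at 44.9, 48.1 and 50.6 CPM in Ythdf2-KO. The groups overlapped for all 3. The respective log2 fold changes were -0.013 ± 0.026, -0.036 ± 0.038 and 0.025 ± 0.039 (SE, n = 3 per group) in that order. Mre11a passed, as lower, only with the offset for transcript length and GC content (edgeR adjusted p = 0.0220). Its log2 fold change was -0.098 there and 0.018 with upper-quartile scaling.

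The other 4 genes of the trimming and RecQ group, Blm, Exo1, Rbbp8 and Wrn, fell. Blm, which encodes the helicase mutated in Bloom syndrome, was at 63.7, 62.4 and 63.9 CPM in WT, and at 40.7, 41.0 and 38.9 CPM in Ythdf2-KO. All Ythdf2-KO libraries stood at about the same lower level, and the change was the largest of the 35 genes; with the offset for length and GC content Brca2 and Blm were about equal, at -0.69 and -0.68. This gave a log2 fold change of -0.66 ± 0.036 (SE, n = 3 per group; edgeR adjusted p = 1.79e-20), a 1.58-fold fall. Exo1, which encodes a long-range trimming nuclease, was at 64.6, 65.4 and 65.5 CPM in WT, and at 49.7, 48.6 and 48.8 CPM in Ythdf2-KO. Both groups were tight and well apart (log2 fold change -0.41 ± 0.034, SE, n = 3 per group; edgeR adjusted p = 2.00e-14). Rbbp8, which encodes CtIP, the cofactor that activates MRE11, fell 1.19-fold from 52.6 to 44.1 CPM (edgeR adjusted p = 1.90e-07). Wrn, the Werner syndrome helicase gene, fell 1.09-fold with overlapping groups (edgeR adjusted p = 0.0246), and its call was lost under 9 of 17 alternatives. Without WT replicate 2 or 3, or Ythdf2-KO replicate 1 or 2, the edgeR adjusted p of Wrn was 0.0638, 0.0749, 0.225 and 0.0853.

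**Figure D2:**
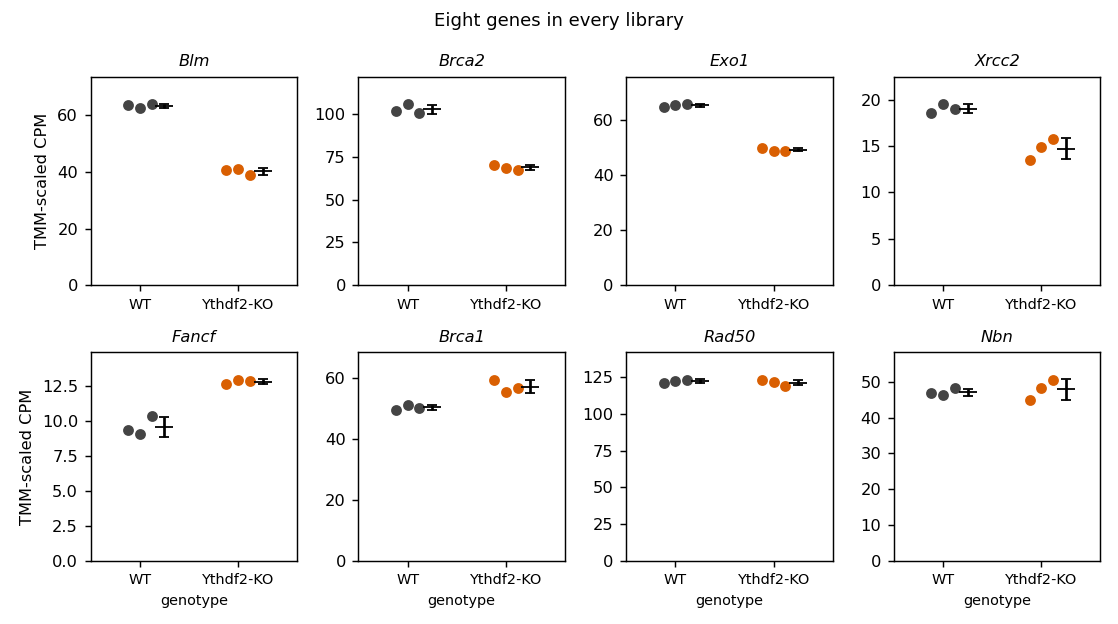
TMM-scaled CPM of 8 genes in each library (points; y axes start at 0), with the mean and SD (n = 3) beside them. Blm, Brca2, Exo1 and Xrcc2 sit lower in all 3 Ythdf2-KO libraries, Fancf and Brca1 higher, and Rad50 and Nbn overlap.

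Of the 5 damage kinases and activators, Atr, Topbp1 and Chek1 fell, and Atm and Chek2 did not pass. Atr, which encodes the kinase activated by single-stranded DNA, was at 59.2, 60.5 and 57.9 CPM in WT, and at 51.7, 51.1 and 50.1 CPM in Ythdf2-KO. The groups did not overlap (log2 fold change -0.22 ± 0.035, SE, n = 3 per group; edgeR adjusted p = 7.79e-07). Topbp1, which encodes an activator of ATR, was at 165, 165 and 166 CPM in WT, and at 153, 153 and 148 CPM in Ythdf2-KO. This small fall was 0.13 ± 0.024 in size on the log2 scale (SE, n = 3 per group; edgeR adjusted p = 1.18e-05), and with upper-quartile scaling the log2 fold change was -0.076 (edgeR adjusted p = 0.00591). Chek1, the effector kinase gene of that arm, fell 1.11-fold from 26.4 to 23.9 CPM (edgeR adjusted p = 0.0119), a call lost under 5 of 17 alternatives, among them without WT replicate 3 or Ythdf2-KO replicate 1 (edgeR adjusted p = 0.0553 and 0.0786).

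Atm, the kinase gene for double-strand breaks, was at 68.9, 70.1 and 68.2 CPM in WT, and at 73.0, 71.3 and 72.2 CPM in Ythdf2-KO. These libraries lay slightly above WT without overlap, but the gene did not pass (log2 fold change 0.064, edgeR adjusted p = 0.0848). It passed as higher with upper-quartile scaling, no filter, a filter at a mean of 5 CPM and without WT replicate 2 (edgeR adjusted p = 0.00102, 0.0388, 0.0112 and 0.0344). With the offset for length and GC content its direction turned (log2 fold change -0.035, edgeR adjusted p = 0.377). Chek2 was at 24.2 and 25.7 CPM and passed, as higher, only with upper-quartile scaling (edgeR adjusted p = 0.0210). The ratio of Atr to Atm counts was 0.859, 0.863 and 0.849 in WT against 0.708, 0.717 and 0.694 in Ythdf2-KO. All Ythdf2-KO ratios were lower. That of Chek1 to Chek2 was 1.14, 1.06 and 1.08 in WT against 0.861, 1.01 and 0.923 in Ythdf2-KO, also below WT throughout. Both pairs were chosen after their values were seen and were not tested. Clspn, which encodes claspin, the adaptor between ATR and CHK1, fell from 70.8 to 58.9 CPM (log2 fold change -0.27, edgeR adjusted p = 4.48e-09).

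The Fanconi core complex is the ubiquitin ligase of the pathway, and 5 of its 8 genes did not pass. Fancf, which encodes an adaptor within the complex, rose most of all 35 genes. It was at 9.32, 9.04 and 10.3 CPM in WT, and at 12.7, 13.0 and 12.8 CPM in Ythdf2-KO, with no overlap (log2 fold change 0.42 ± 0.074, SE, n = 3 per group; edgeR adjusted p = 4.35e-06). Fancf shares 15.0% of its exon length with Gas2 on the opposite strand. Gas2 rose by 0.43 on the log2 scale, from 7.35 to 9.90 CPM, and without strand information the shared reads cannot be told apart.

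Fanca, another core subunit gene, was at 43.4, 38.4 and 42.1 CPM in WT, and at 36.5, 36.5 and 37.2 CPM in Ythdf2-KO. The WT libraries varied more than those of Ythdf2-KO and stayed above them (log2 fold change -0.17 ± 0.042, SE, n = 3 per group; edgeR adjusted p = 7.86e-04). Fanca shares 10.5% of its exon length with Zfp276 on the opposite strand. Zfp276 was at 17.4 CPM in both genotypes and did not pass (edgeR adjusted p = 0.976). Fancm, which encodes the helicase that anchors the complex to DNA, rose 1.10-fold (edgeR adjusted p = 0.0380). That call was lost under 7 of 17 alternatives, and its log2 fold change was 0.048 with the offset for length and GC content (edgeR adjusted p = 0.501). Without WT replicate 2 or 3, or Ythdf2-KO replicate 1 or 2, the edgeR adjusted p of Fancm was 0.0723, 0.134, 0.101 and 0.109. Fancb, Fancc, Fance, Fancg and Fancl had log2 fold changes of -0.20, -0.0088, -0.063, 0.046 and -0.066. Fancb, with the lowest edgeR adjusted p of these at 0.0534, passed as lower only without Ythdf2-KO replicate 1 (edgeR adjusted p = 0.0432). Fancl, the gene of the catalytic subunit, shares 13.7% of its exons with Vrk2 on the opposite strand.

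The substrates of the core complex and the helicase BRIP1 fell, 3 of 3. Fancd2 was at 41.4, 38.3 and 41.3 CPM in WT, and at 32.6, 36.01 and 33.6 CPM in Ythdf2-KO, without overlap. This gave a log2 fold change of -0.24 ± 0.043 (SE, n = 3 per group; edgeR adjusted p = 6.42e-06). Brip1, which encodes a helicase that binds BRCA1, was at 23.9, 22.8 and 23.8 CPM in WT, and at 20.3, 19.8 and 20.3 CPM in Ythdf2-KO. These lay close together within each group and lower in Ythdf2-KO (log2 fold change -0.23 ± 0.052, SE, n = 3 per group; edgeR adjusted p = 2.99e-04). Fanci fell 1.13-fold (edgeR adjusted p = 0.0201). It shares 16% of its exons with Polg on the opposite strand, which rose by 0.11 on the log2 scale, and the call was lost under 7 of 17 alternatives (adjusted p up to 0.115). Without WT replicate 1 or 2, or Ythdf2-KO replicate 1 or 2, the edgeR adjusted p of Fanci was 0.0629, 0.0762, 0.0795 and 0.0802. The ratio of Fancd2 to Fanci counts was 2.39 ± 0.154 in WT against 2.28 ± 0.184 in Ythdf2-KO (SD, n = 3), with overlapping libraries. This pair was chosen with the others above and was not tested.

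**Figure D3:**
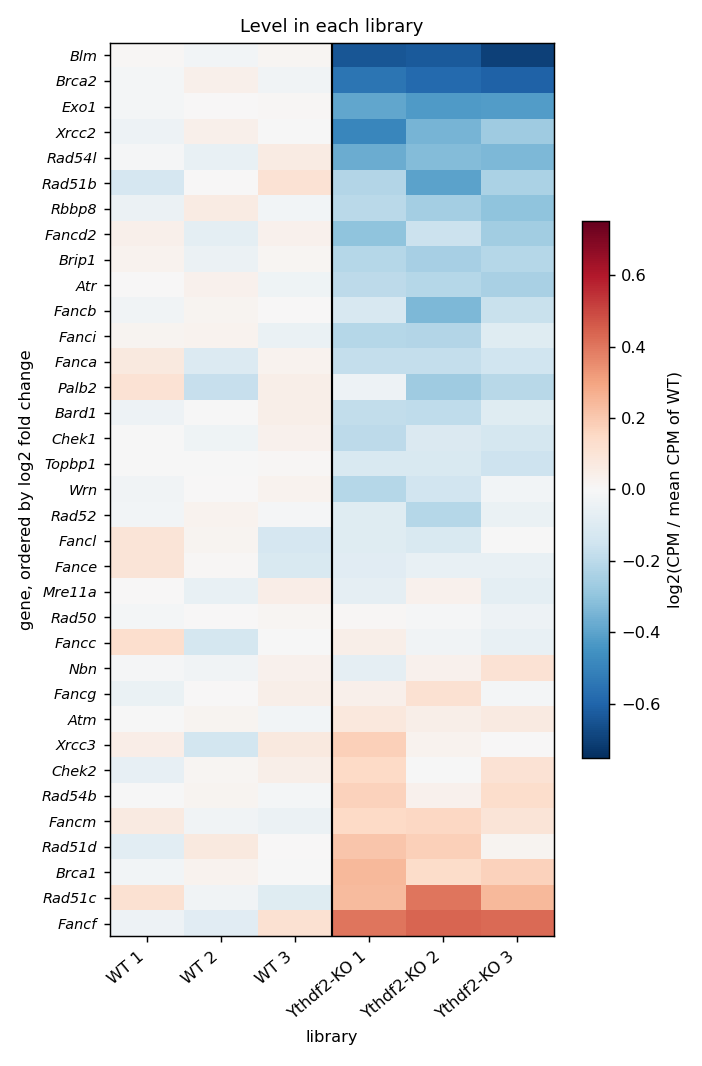
Level of each of the 35 genes (rows, ordered by fold change) in each library (columns) as log2 of CPM over the mean CPM of WT. The upper rows, from Blm and Brca2, are blue in all 3 Ythdf2-KO libraries, the lowest rows, up to Fancf, are red, and the middle rows such as Rad50 stay near 0.

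Per transcript length, the WT levels of the 35 genes spanned from 1.92 CPM per kb for Fancg to 31.7 CPM per kb for Topbp1. Rad50 at 23.8, Nbn at 18.6, Rbbp8 at 14.9 and Blm at 13.3 CPM per kb followed Topbp1. Rad51b, Rad54b, Palb2 and Fancm lay near Fancg, at 2.11, 2.17, 2.46 and 2.49 CPM per kb. In Ythdf2-KO Blm stood at 8.42 CPM per kb, while Rad50 and Nbn stood at 23.6 and 18.9. The transcripts of the 35 genes had a median length of 3.80 kb and a median GC content of 45.9%. The medians were 2.69 kb and 49.7% for the 16758 genes tested that had these values (94.6%). Across the 35 genes Spearman's rho of the log2 fold change was -0.26 with length and 0.23 with GC content. Across the 16758 genes it was 0.061 and 0.044. These are descriptions over genes, which share the same 6 libraries and are not replicates.

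The wider repair pathways, listed from textbook roles, held 90 further genes, of which 89 were tested. Of these, 33 fell, 18 rose and 38 did not pass, with a median log2 fold change of -0.032. That is 37.1% lower and 20.2% higher, beside 25.8% lower and 24.1% higher among all genes tested. The same background holds for the lists that follow. Other homologous recombination genes fell 13 times and rose 4 times among 34 tested (38.2% and 11.8%). Hrob, whose protein recruits the MCM8 and MCM9 helicase, fell 1.64-fold from 27.6 to 16.8 CPM (edgeR adjusted p = 2.53e-15). Eme1, a nuclease subunit gene, fell 1.35-fold, and Dna2, which encodes a trimming nuclease that works beside EXO1, rose 1.51-fold from 9.98 to 15.0 CPM. The genes of BLM's partners Top3a, Rmi1 and Rmi2, named after their values were seen, fell by 0.22, 0.23 and 0.30 on the log2 scale.

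Other Fanconi and crosslink repair genes moved in both directions, with 6 lower and 5 higher of 19 (31.6% and 26.3%). Rev3l, which encodes the catalytic subunit of translesion polymerase zeta, rose 1.37-fold from 64.4 to 88.0 CPM (edgeR adjusted p = 3.74e-16). Rfwd3 and Rad18, ubiquitin ligase genes, fell 1.27- and 1.25-fold, and Polh, another translesion polymerase gene, 1.18-fold. Of 19 other checkpoint genes, 8 fell and 3 rose (42.1% and 15.8%). Mdc1, which encodes a mediator at damaged chromatin, fell 1.19-fold from 171 to 144 CPM, Cdc25c 1.27-fold, and the fork protection genes Timeless and Tipin fell by 0.23 and 0.27 on the log2 scale.

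End joining, which seals breaks without a template, had 6 genes higher and 6 lower of 17 (35.3% each). Xrcc5, which encodes the Ku80 end-binding protein, rose 1.51-fold from 25.3 to 38.1 CPM (edgeR adjusted p = 1.51e-15). Prkdc, the DNA-dependent protein kinase gene, rose 1.42-fold from 22.3 to 31.7 CPM, and Dclre1c, which encodes the nuclease Artemis, 1.39-fold. Xrcc6, the gene of Ku70, partner of Ku80, was named after its values were seen and did not pass (log2 fold change 0.058). Polq, which encodes the polymerase of the alternative end-joining route, fell 1.33-fold from 29.9 to 22.4 CPM (edgeR adjusted p = 1.18e-09).

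**Figure D4:**
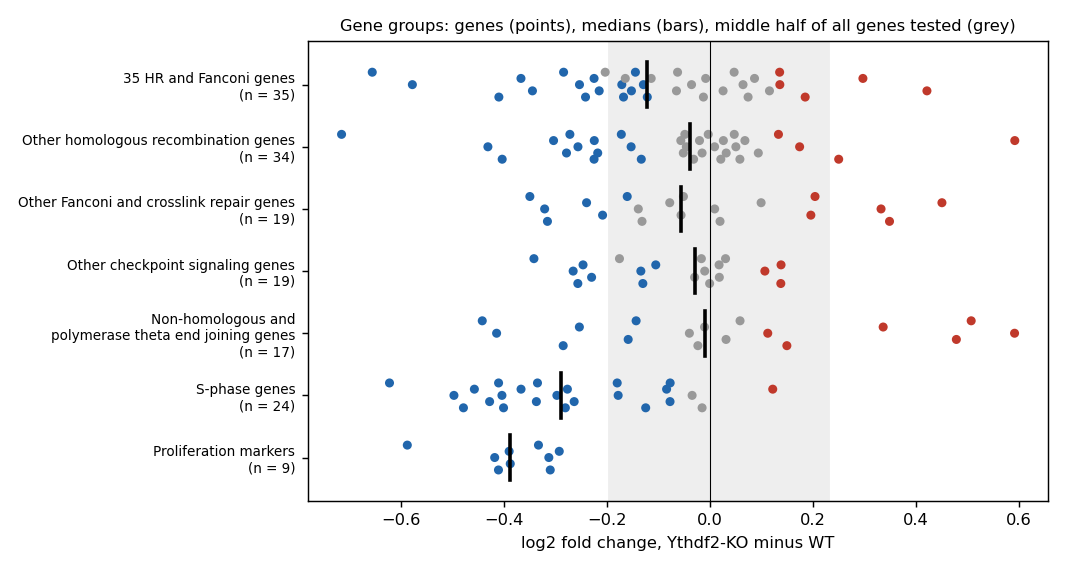
Log2 fold change (x axis, Ythdf2-KO minus WT) of the genes of 7 groups, with red for higher, blue for lower and grey for genes that did not pass; black bars are medians and the grey band spans the quartiles of all genes tested, from -0.20 to 0.23. The median is -0.12 for the 35 genes, -0.29 for S-phase genes and -0.39 for proliferation markers.

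S-phase and proliferation genes were listed for comparison. Of 24 S-phase genes, 21 fell and 1, Mcm2, rose, with a median log2 fold change of -0.29. Their summed level was 3164 to 3216 CPM in the WT libraries against 2632 to 2689 CPM in those of Ythdf2-KO. Rrm2, a ribonucleotide reductase subunit gene, fell 1.54-fold, and Mcm5, E2f1 and Mcm7 fell 1.29-, 1.33- and 1.26-fold. All 9 proliferation markers fell, from a sum of 1968 to 1987 CPM to one of 1511 to 1530 CPM, among them Bub1 from 138 to 91.9 CPM, Mki67 1.34-fold, Ccnb1 1.31-fold and Top2a 1.24-fold. The part of the S-phase genes' fall in the levels of the 35 genes was not tested.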

How the data were processed

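Per the submitters' processing notes, fastp 0.23.2, HISAT2 2.2.1 and featureCounts 2.0.6 were used with the build GRCm39; for strand and multi-mapping, the settings were not given in the sources used here. The deposited table holds raw read counts by gene symbol, which the authors did not normalize. The members and lists were chosen with earlier results of these data known. Counts were filtered with filterByExpr, scaled with TMM and fitted in R 4.3.3 with edgeR 4.0.16 (robust quasi-likelihood, adjusted p under 0.05 by Benjamini-Hochberg over all 17718 genes tested). The SE is the log2 fold change over the root of the F statistic. Within a genotype, replicates differed by a chi-square of 4.22 to 14.6 per degree of freedom, so none were merged. Alternatives used limma 3.58.1 and DESeq2 1.42.0. A count of 3 equals 0.0433 to 0.0540 CPM.

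Every listed gene may be named; values in each library are given for the 2 genes of each role with the smallest adjusted p and for those at least 1.5-fold apart, and of the other lists up to 4 genes with the smallest adjusted p. The MRN genes and Atm were added after their values were seen. Results for some listed genes are not reported here. Transcript length (the longest basic coding transcript), GC content and exon overlaps came from GENCODE M21 (GRCm38), joined by symbol; promoter windows came from RefSeq (GRCm38.p6). Figures used Python 3.11.15 and matplotlib 3.10.9.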

Additional observations from a re-analysis of the deposited data

How the results depend on the processing

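Across 17 alternatives, none of the 21 genes called in the main fit reversed direction. The 5 higher genes became 3 at an adjusted p under 0.01 and with the offset for transcript length and GC content, and 3 to 5 without any 1 library. The median log2 fold change of -0.12 became -0.069 with upper-quartile scaling, -0.095 with a filter at a mean of 5 CPM, where 34 of the genes were tested, and -0.14 with the offset, and ran from -0.14 to -0.11 without any 1 library. The count of 16 lower genes was 11 to 17 under all alternatives. With the replicate block 4 genes were higher and 15 lower. The deviations of same-numbered libraries had correlations of 0.011, -0.037 and -0.052, and not every library correlated best with its own number. No pairing by number was seen, but with 3 libraries per group these values cannot exclude it. The causes were not tested. Of 14 genes that did not pass, 5 passed under at least 1 alternative. Depth limits the genes with the fewest counts: Rad51b, with as few as 216 in a library, had the largest SE of the 35, 0.116.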
